A study of Homo sapiens with 46 samples.

Results

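The nuclear genes of ribosome biogenesis, the set of 60 genes described here, encode the nucleolar and nuclear factors that make the cytosolic ribosome. They were chosen by gene name from the 58735 genes of the count table, with earlier results of these data known. All 60 were in the table, and all 60 passed the filter on low counts and were among the 20272 genes tested. By role they comprised 3 core proteins of box C/D small nucleolar ribonucleoproteins (snoRNPs), 4 of box H/ACA snoRNPs, 4 nucleolar chaperones or helicases, 4 genes of RNA polymerase I transcription, 17 genes of the small-subunit processome, 6 late pre-40S factors and 22 pre-60S factors.

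Ribosome production begins in the nucleolus, where RNA polymerase I transcribes a long precursor rRNA. Small nucleolar RNAs in complexes built on FBL, NOP56 and NOP58 direct methylation of the precursor, and those built on DKC1, NHP2, NOP10 and GAR1 direct its pseudouridylation. The small-subunit processome and the pre-60S factors then fold, cleave and trim the precursor while ribosomal proteins are added. Transcription of many of these genes follows cell growth and is driven by MYC. None of the 60 genes makes part of the mitochondrial ribosome, which reads the mRNAs that were targeted in this study.

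The RNA was poly(A)-selected from HEK293T cells, a human embryonic kidney line. After 400000 cells had been seeded per flask and grown, a presequence-morpholino chimera was added at 2 µM with the delivery peptide EndoPorter, and RNA was taken after 48 h of this treatment. In each chimera the mitochondrial targeting presequence of yeast Cox4 (pCox4) carried an antisense morpholino into the mitochondria, where it bound 1 of the 11 targets ATP6, ATP8, COX1, COX2, COX3, CYTB, ND1, ND2, ND3, ND4L or ND5. Control cells received the presequence without a morpholino. There were 4 libraries for the control and for each treatment, except for COX2 and ND2 with 3, and replicates 1 and 2 came from one batch and replicates 3 and 4 from another, on other days and with other reagent batches. All 11 treatments were compared with the same 4 control libraries, so that their differences from control were not independent of each other. All libraries came from 1 cell line, and the spread between them may be partly technical.

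Depth ran from 18876395 to 28121898 counts in 45 of the 46 libraries, and COX3 replicate 4 stood apart with 100698084. The summed level of 5 HEK293 markers was 355 to 410 CPM (counts scaled to the same library size in every library), with NEFM, the lowest of them, at a median of 0.971 CPM. Summed levels were 26.8 to 38.3 CPM for 5 fibroblast markers, most of it COL1A1, 0.556 to 2.22 CPM for 5 leukocyte markers and 0.0409 to 0.863 CPM for 5 hepatocyte markers. The targeted mRNA itself was lower by edgeR's quasi-likelihood test after COX1 (log2 fold change -1.33 ± 0.07, SE), COX3 (-0.49 ± 0.06) and CYTB (-0.33 ± 0.06), and higher after ND1 (0.79 ± 0.07), ND2 (1.02 ± 0.07) and ND3 (0.80 ± 0.13). The remaining 5 targets did not pass the test. Translation, which the chimeras were made to block, was not measured by these libraries.

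The letters next to the start sites of the genes were searched for the E-box bound by MYC and its partners (CACGTG) and for the BANP motif, a CG-rich palindrome found near the start of many housekeeping genes. Both read the same on either strand. RefSeq gave a start site (GRCh38.p14) for 52 of the 60 genes, and in the 250 bases before it 7 of the 52 held an E-box, or 13.5%, against 6.49% of all 27305 promoters. The BANP motif was found in 1 of the 52, NOP14, or 1.92%, against 0.410%. The E-boxes of the genes described further on are shown as windows of at most 30 bases, read 5′ to 3′ on the strand of the gene, with the motif in capitals, because this is the site through which MYC is known to act on the pathway.
EBNA1BP2 (chr1:43172790-43172819, minus strand): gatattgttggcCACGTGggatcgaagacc
UTP4 (chr16:69132621-69132648, plus strand): agagcgcgcgcgCACGTGgggccggggc
UTP14A (chrX:129905914-129905940, plus strand): accttgggcCACGTGgaaaccaggggc
UTP20 (chr12:101280083-101280104, plus strand): cttttttccgtcCACGTGaccc
NOP10, distal (chr15:34343289-34343318, minus strand): gtagggacactcCACGTGttttagcctgca
NOP10, proximal (chr15:34343137-34343159, minus strand): gaaattgacgaaCACGTGacgcg
The E-box began 10 bases before the start in UTP20, 16 in UTP4, 237 in EBNA1BP2 and 241 in UTP14A, and 170 and 11 bases before it in NOP10. The other E-boxes lay upstream of IMP4 and SDAD1. Neither motif occurred in the window of EMG1, FBL, LAS1L, NHP2, RRP1, WDR74 or IMP3, the members called in a comparison below. As an example of these, the 250 bases before the start of LAS1L (chrX:65534788-65535037, minus strand), which overlap no gene in GENCODE 29, are shown without capitals because neither motif is in them.
LAS1L: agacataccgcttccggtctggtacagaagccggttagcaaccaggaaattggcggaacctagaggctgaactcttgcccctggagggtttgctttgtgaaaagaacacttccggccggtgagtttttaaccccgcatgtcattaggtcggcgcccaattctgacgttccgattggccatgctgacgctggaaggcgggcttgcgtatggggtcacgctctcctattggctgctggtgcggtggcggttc

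Together the 60 genes took up 1.07% ± 0.03 (SD, n = 4) of the normalized counts in control cells. Per length, FBL, the methyltransferase of box C/D snoRNPs, had the highest level, at 337 ± 26.9 CPM per kb over the 46 libraries (SD), followed by the histone and pre-ribosome chaperone NPM1 at 301 CPM per kb, after which 45 pseudogenes are named that could share its reads, and nucleolin (NCL) at 198 CPM per kb. The RNA helicase DDX21 was at 138 CPM per kb, NOLC1 at 126 CPM per kb and NOP10, a small protein of box H/ACA snoRNPs, at 115 CPM per kb. GNL3 led the pre-60S factors (62.1 CPM per kb), WDR43 the processome (33.4 CPM per kb), TSR1 the late pre-40S factors (31.5 CPM per kb) and UBTF, the activator of RNA polymerase I, its own group (31.4 CPM per kb). NOP2, an rRNA methyltransferase, was last at 0.613 CPM per kb and 2.88 ± 0.74 CPM (SD, n = 46). It overlaps the annotated gene AC006064.6 on the same strand, and how the authors assigned reads shared by overlapping genes was not given in the sources used here. AC006064.6 itself was at 0 CPM in control, and its highest group mean was 0.0328 CPM, after ATP6. The genes varied little between libraries: for 51 of the 60 the highest library was under 1.5 times the lowest.

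Do the cells change these genes when mitochondrial translation of 1 subunit is blocked? Upon silencing of COX2 more members were called than in any other treatment. NHP2, RRP1, WDR74, EMG1, FBL and LAS1L were higher than control by 0.21 to 0.34 on the log2 scale, at an adjusted p below 0.05 (edgeR's quasi-likelihood test with batch as a term, Benjamini-Hochberg adjustment over all 20272 genes), and no member was lower. These 6 of 60 members stand beside 0.252% of all genes tested that were called higher in the same comparison. They were 1 box C/D protein, 1 box H/ACA protein, 1 processome gene and 3 pre-60S factors, and no gene of RNA polymerase I transcription, of the chaperones or of the late pre-40S group was among them. In GENCODE 29 (GRCh38) NHP2 lies at chr5:178149460-178153967, RRP1 at chr21:43789513-43805293, WDR74 at chr11:62832342-62841809, EMG1 at chr12:6970893-6997428, FBL at chr19:39834458-39846414 and LAS1L at chrX:65512582-65534775. RRP1, FBL and LAS1L overlap no other gene, and EMG1 overlaps C1S and LPCAT3. WDR74 overlaps 2 genes on its own strand and 1 on the other, of which only TEX54 is protein-coding.

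NHP2, which binds the guide RNA in box H/ACA snoRNPs, was measured at 92.9, 92.2, 85.9 and 81.2 CPM in control replicates 1 to 4 and at 121, 102 and 106 CPM in COX2 replicates 2, 3 and 4. The 2 groups did not overlap. The log2 fold change was 0.32 ± 0.07 (SE, adjusted p = 0.0199, edgeR). NHP2 overlaps RMND5B on the other strand, and the strand setting of the counting is not known. RMND5B was at 72.4 ± 2.82 CPM (SD, n = 4) in control and at 77.4 ± 1.26 CPM (SD, n = 3) after COX2, a log2 fold change of 0.09 ± 0.06 that did not pass the test.

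WDR74 helps to release remodelling factors from pre-60S particles. Its level was 32.0, 34.6, 33.2 and 25.2 CPM in the controls, with replicate 4 the lowest of all 46 libraries. In the COX2 libraries it was 43.3, 39.4 and 34.1 CPM, so that the lowest treated library lay within the control range. The log2 fold change was 0.34 ± 0.08 (SE, adjusted p = 0.0307, edgeR).

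FBL was at 714, 670, 638 and 612 CPM in the controls and at 836, 750 and 777 CPM after COX2, with no overlap (log2 fold change 0.27 ± 0.06). RRP1, a nucleolar factor of 28S rRNA maturation, was at 137, 135, 122 and 120 CPM in the controls and at 157, 167 and 146 CPM after COX2, again without overlap (0.29 ± 0.06). LAS1L, a subunit of the complex that cleaves the second internal spacer of the precursor, was at 131, 127, 127 and 120 CPM in the controls and at 148, 151 and 136 CPM after COX2, also without overlap (0.21 ± 0.05). For EMG1, the methyltransferase that modifies a single pseudouridine of 18S rRNA, the controls gave 47.8, 43.9, 41.4 and 39.6 CPM and the COX2 libraries 60.1, 51.2 and 45.2 CPM (0.30 ± 0.07), and the groups overlapped. Against the control mean of its own batch, every COX2 library was higher for each of the 6 genes.

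**Figure D1:**
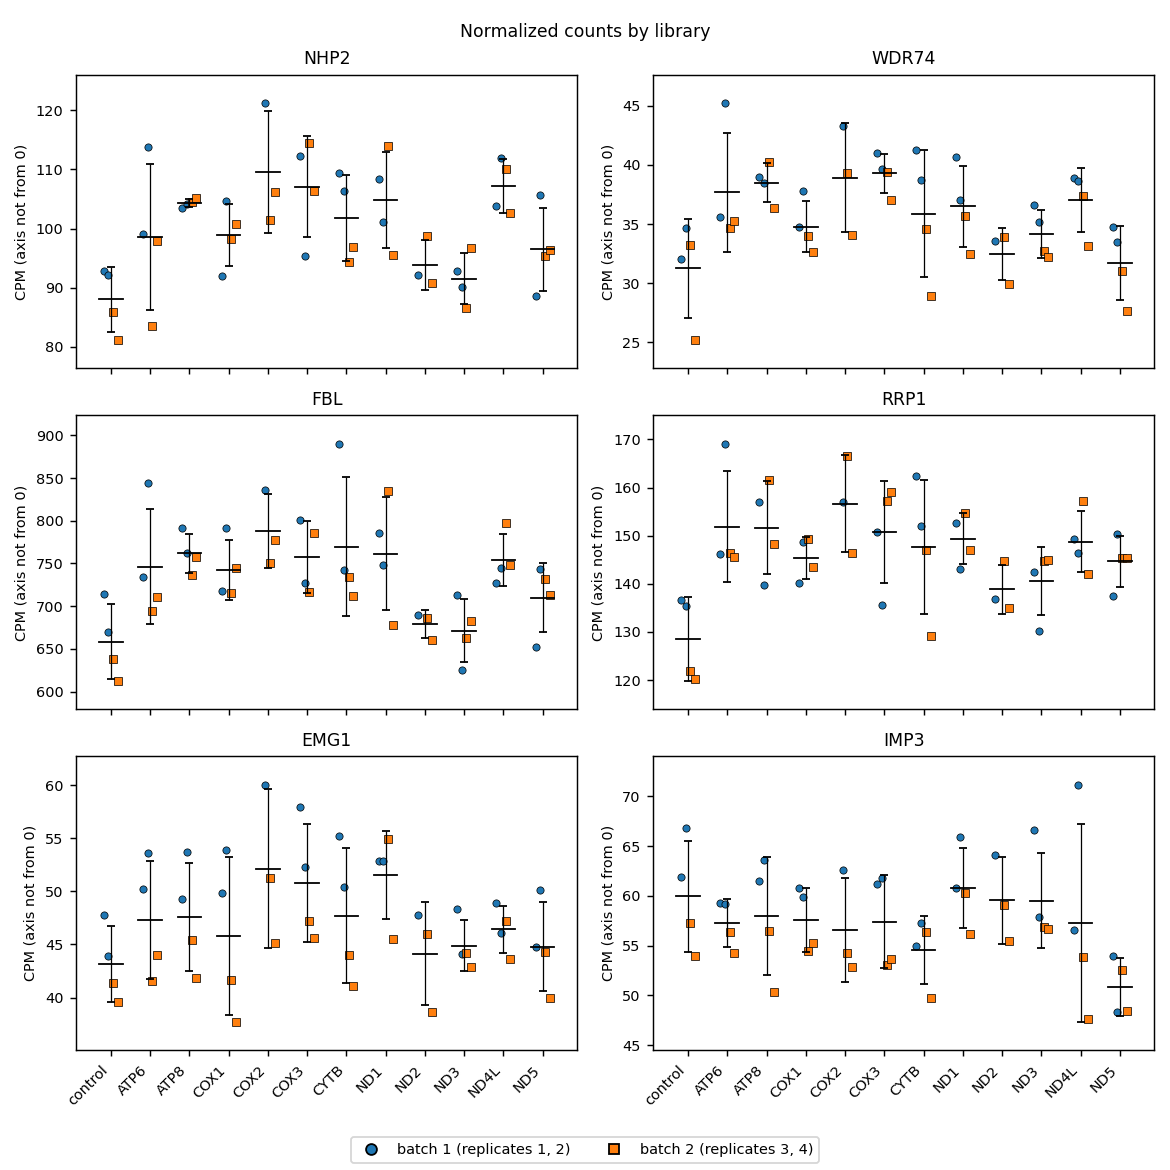
Normalized counts (CPM, vertical axes not starting at 0) of NHP2, WDR74, FBL, RRP1, EMG1 and IMP3 in every library, by treatment on the horizontal axis. Circles are batch 1 and squares batch 2, the horizontal line is the mean and the bar the SD; NHP2 in the 3 COX2 libraries (102 to 121 CPM) lies above all 4 controls (81.2 to 92.9 CPM), and IMP3 is lowest on average after ND5 (50.8 CPM).

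In the COX2 comparison 51 of 60 members had a log2 fold change above 0, against 50.9% of all genes. At an unadjusted p below 0.05, 27 members were higher and 0 lower, against 7.42% and 6.16% of all genes. The members also moved together between the 2 control libraries of batch 2. Set against the mean of these 2 libraries, replicate 3 had 46 members above it and replicate 4 had 14. In batch 1 the numbers were 25 for control replicate 1 and 35 for replicate 2. With 2 controls in a batch, each pair of numbers reflects 1 difference between 2 libraries. After COX2 the median of the members was 0.10 on the log2 scale and that of all genes 0.00. By group the median was 0.18 for the 4 box H/ACA proteins, 0.16 for the 22 pre-60S factors, 0.11 for the 3 box C/D proteins, 0.09 for the late pre-40S factors, the processome and the chaperones alike, and 0.04 for RNA polymerase I transcription. Each batch gave a positive median, 0.11 in batch 1, with 1 COX2 library, and 0.10 in batch 2. The lowest box C/D member was NOP58, with a log2 fold change of 0.00 ± 0.06 (SE).

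The calls after COX2 depended on single libraries. The fit called 0 members without control replicate 4 or without COX2 replicate 2, and 1 without COX2 replicate 3. It called 3 without control replicate 2 or 3, 4 without control replicate 1 and 8 without COX2 replicate 4. Of these 7 fits, NHP2 kept its call in 5, RRP1 and WDR74 in 3 each, EMG1 and FBL in 2 each and LAS1L in 1. Without a batch term, or in either batch alone, no member was called.

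After COX3, NHP2 and WDR74 were higher than control (2 of 60 members, beside 0.178% of all genes called higher) and no member was lower. WDR74 was at 41.0, 39.6, 39.4 and 37.1 CPM, all above the 4 controls (log2 fold change 0.33 ± 0.07, adjusted p = 0.0198, edgeR). NHP2 was at 112, 95.3, 114 and 106 CPM, also above every control (0.28 ± 0.07, adjusted p = 0.0319, edgeR). GAR1, another box H/ACA protein, was at 34.1, 32.4, 34.7 and 35.0 CPM against 27.9, 31.3, 26.1 and 27.7 CPM in the controls, without overlap, and its log2 fold change of 0.27 ± 0.08 did not pass the test (adjusted p = 0.15, edgeR). DKC1, the pseudouridine synthase of the same complex, had a value of 0.14 ± 0.05. In all, 54 members were above 0, against 49.7% of all genes, the median was 0.09, and 27 members were higher and 0 lower at an unadjusted p below 0.05, against 5.65% and 4.74% of all genes. Within batches the median was 0.08 and 0.11. No call was left without control replicate 1 or 4 or without COX3 replicate 1, 3 or 4, 1 was left without control replicate 2 or 3, and 3 members were called without COX3 replicate 2. No member was called without a batch term or in batch 1 alone. In batch 2 alone 1 member was called, which was neither NHP2 nor WDR74.

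ND4L gave a single call, NHP2 at 104, 112, 110 and 103 CPM in the 4 libraries (log2 fold change 0.28 ± 0.07, adjusted p = 0.0445, edgeR), beside 0.118% of all genes called higher. All 4 libraries lay above the 4 controls. RMND5B on the other strand had a log2 fold change of 0.15 ± 0.05 in this comparison and did not pass the test. The rest of the members were divided: 34 of 60 were above 0, against 50.8% of all genes, and at an unadjusted p below 0.05 there were 10 higher and 5 lower, against 7.11% and 6.99% of all genes. The lower ones were BRIX1, DDX18, DDX56, RRN3 and UTP20. The call of NHP2 was kept in 1 of the 8 fits that left out a library, the one without control replicate 1, and was lost with size factors of another kind, with library sizes from nuclear genes, and with the trend on GC content or on gene length removed.

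For the other 8 treatments edgeR called 0 members at an adjusted p below 0.05. The share of all genes called in either direction was 0.00987% after ATP6, 0.0641% after ATP8, 0.0543% after COX1, 0.548% after CYTB, 0.0888% after ND1, 0.0247% after ND2, 0.00987% after ND3 and 0.158% after ND5. After ND1, 55 of 60 members were above 0, against 49.1% of all genes, with a median of 0.10, and 27 were higher and 0 lower at an unadjusted p below 0.05, against 6.47% and 5.24% of all genes. DESeq2 called 6 members after ND1, beside 0.774% of all genes. The member with the lowest p was NHP2, at 108, 101, 114 and 95.5 CPM and above all controls (log2 fold change 0.25 ± 0.07, adjusted p = 0.088, edgeR), and EMG1 had 0.26 ± 0.07. UTP14A, a processome subunit whose E-box is shown above, had 0.21 ± 0.06.

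After ATP8, 52 members were above 0, against 50.6% of all genes, with a median of 0.08, and 20 were higher and 0 lower at an unadjusted p below 0.05, against 6.21% and 4.02% of all genes. DESeq2 called 4, beside 0.365% of all genes. WDR74 led with 0.30 ± 0.07, and MRTO4, a pre-60S factor related to the ribosomal stalk, was at 151, 151, 148 and 133 CPM against 128, 132, 130 and 123 CPM in control. After ATP6, 38 members were above 0, against 51% of all genes, and 13 were higher and 0 lower at an unadjusted p below 0.05, against 5.39% and 3.69% of all genes, with RRP1 (0.24 ± 0.06) at the lowest p and 1 member called by DESeq2, beside 0.109% of all genes.

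After CYTB, 40 members were above 0, against 49.9% of all genes, and 11 were higher and 5 lower at an unadjusted p below 0.05, against 7.66% and 6.01% of all genes, and DESeq2 called 3, beside 1.68% of all genes. FBL was the first of the higher members (0.23 ± 0.06, adjusted p = 0.051, edgeR). Among the lower ones, RRN3, which brings RNA polymerase I to its promoter, had -0.16 ± 0.06, and UTP20, a large scaffold of the processome, -0.20 ± 0.07. After COX1, 41 members were above 0, against 51.3% of all genes, and 8 were higher and 1 lower at an unadjusted p below 0.05, against 4.58% and 2.86% of all genes, with RRP1 at 0.18 ± 0.06 and 0 members called by DESeq2, beside 0.118% of all genes.

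The fewest members passed the unadjusted threshold after ND2, ND3 and ND5. Above 0 were 51 members after ND2, 43 after ND3 and 36 after ND5, against 50.5%, 51% and 50.3% of all genes. After ND2, 4 members were higher and 0 lower at an unadjusted p below 0.05, against 2.34% and 2.57% of all genes, the first of them NIP7 at 0.16 ± 0.07. After ND3 there was 1 higher, RRP1 at 0.13 ± 0.06, and 1 lower, DDX56, against 1.62% and 1.69% of all genes. After ND5, 5 members were higher and 3 lower, against 4.78% and 4.53% of all genes. The lower ones were DDX56, IMP3 and NOP10. DDX56, a helicase of pre-60S particles, was at 231, 213, 230 and 232 CPM after ND5 against 253, 242, 264 and 256 CPM in control, without overlap (-0.16 ± 0.04, adjusted p = 0.071, edgeR). DESeq2 called 0 members after ND2, 0 after ND3 and 2 after ND5, beside 0.0247%, 0.0148% and 0.503% of all genes.

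**Figure D2:**
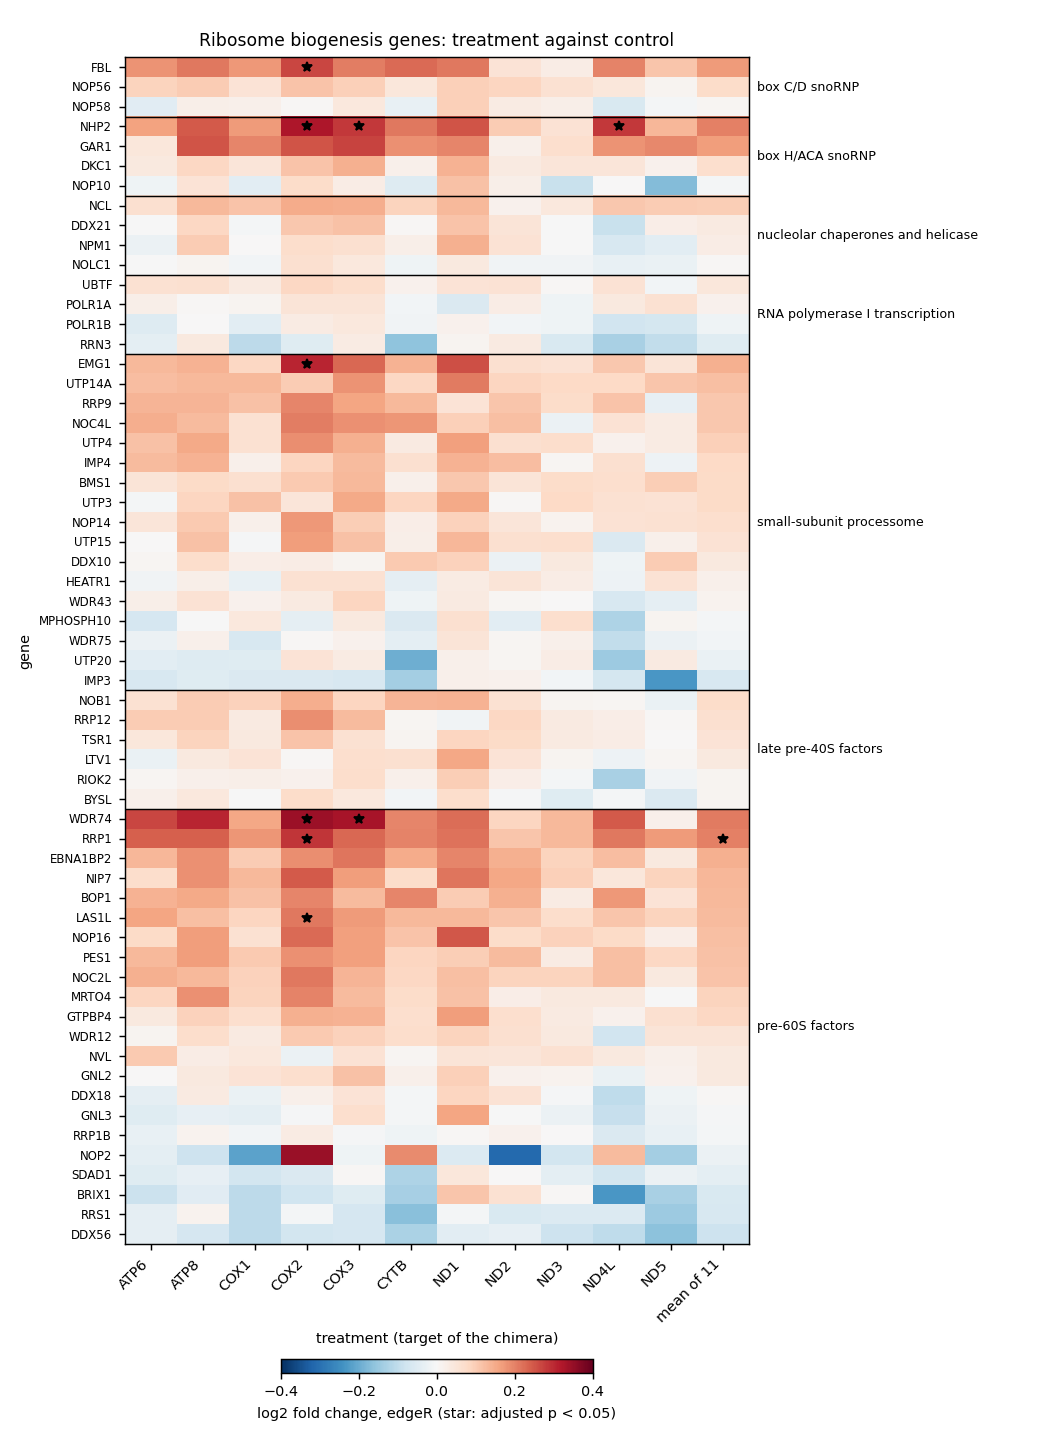
Log2 fold change of the 60 genes (rows, grouped by role and ordered by the mean of the treatments within each group) in the 11 treatments and in their mean against control (columns); red is higher and blue lower than control, and a star marks an adjusted p below 0.05. Stars fall on 6 genes after COX2, 2 after COX3, 1 after ND4L and 1 in the mean, all on the higher side.

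The mean of the 11 treatments was set against control to ask what they share. RRP1 rose, with a log2 fold change of 0.20 ± 0.04 (SE, adjusted p = 0.0327, edgeR), the 1 member called beside 0.178% of all genes called higher. Its mean level was 129 ± 8.73 CPM (SD, n = 4) in control and between 139 CPM after ND2 and 157 CPM after COX2 in the treatments. Its paralog RRP1B, which is also nucleolar, had -0.01 ± 0.03 in the same comparison and 247 ± 15.6 CPM (SD, n = 4) in control. Other members with values of this size were WDR74 (0.21 ± 0.06), NHP2 (0.20 ± 0.05), FBL (0.17 ± 0.04), GAR1 (0.17 ± 0.06), EMG1 (0.14 ± 0.05) and EBNA1BP2 (0.14 ± 0.05), none of which passed the test (adjusted p from 0.051 for NHP2, edgeR).

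Further members with unadjusted p below 0.05 were mostly pre-60S factors: NIP7, BOP1 and LAS1L at 0.13 each, PES1 and NOP16 at 0.12, NOC2L at 0.11, MRTO4 at 0.09 and GTPBP4 at 0.08. PES1 and BOP1 are partners in the PeBoW complex, which is needed for the maturation of 5.8S and 28S rRNA. From the processome there were UTP14A (0.12) and UTP4 (0.09) among others, and from the chaperones NCL (0.10). In total 21 members were higher and 1, DDX56 (-0.08 ± 0.03), was lower, against 6.55% and 5.37% of all genes. Not all 21 are named here. They were 11 of 22 pre-60S factors, 5 of 17 processome genes, 2 of 3 box C/D proteins, 2 of 4 box H/ACA proteins and 1 of 4 chaperones. Of the 60 members 46 were above 0, against 49.4% of all genes. A single control library, replicate 3, also had 46 members above the control mean of its batch. Replicate 4, the other control of that batch, had 14. The members of highest level per length were not all among the 21 higher members: NPM1 had 0.03 ± 0.04, NOP10 -0.01 ± 0.06, GNL3 0.00 ± 0.05 and WDR43 0.01 ± 0.04. The call of RRP1 was lost in 3 of the 46 fits that left out a library, those without control replicate 2 (adjusted p = 0.061, edgeR), 3 (adjusted p = 0.24) or 4 (adjusted p = 0.43), as well as without a batch term and in batch 1 alone.

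Transcript GC content moved with these values. The 26 members of at least 50% GC had a median log2 fold change of 0.18 after COX2, and the 34 below had 0.06. For protein-coding genes as a whole the medians were 0.06 and -0.04. Over the 60 members the correlation of GC content and log2 fold change was r = 0.51 after COX2, 0.63 after ND4L, 0.41 in the mean of the treatments and 0.02 after ND1, as a description over genes that share the same libraries. With the trend on GC content removed in each library, the median of the members after COX2 was 0.11, NHP2 and EMG1 kept their calls, and FBL, LAS1L, RRP1 and WDR74 lost theirs. That fit called 4 members after COX2, all higher, so that members not called before were among them. Of all 20272 genes it called 54 higher.

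The treatments were then compared with each other. The control libraries were not part of these comparisons but stayed in the fit, where they bore on the batch term and the spread. With each treatment set against the mean of the other 10, 1 of the 660 tests of members in the 11 comparisons passed. Of the tests of all genes in them 0.0991% passed, a share near that of the members. IMP3, which tethers the U3 snoRNP to the precursor rRNA, fell after ND5 by 0.19 on the log2 scale (SE 0.05, adjusted p = 0.0332, edgeR), beside 0.296% of all genes called lower in that comparison. Its level was 54.0, 48.3, 52.6 and 48.4 CPM in the ND5 libraries and 47.6 to 71.2 CPM, with a median of 56.8, in the other 38 treated libraries, so that the ranges overlapped. In control it was 61.9, 66.8, 57.3 and 54.0 CPM. IMP3 shares its locus with SNX33 on the other strand. The call was kept in 43 of the 46 fits that left out a library and was lost without ND5 replicate 1 (adjusted p = 0.095, edgeR), 2 (adjusted p = 0.21) or 4 (adjusted p = 0.14), without a batch term, in either batch alone, and with the trend on gene length or GC content removed.

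Other differences among the treatments stayed below the adjusted threshold. After COX2, 13 members were higher and 0 lower than in the other treatments at an unadjusted p below 0.05 (all genes 3.52% and 3.16%), and after ND1 14 were higher and 0 lower (5.46% and 5.33%). In ND1 the members of lowest p were GNL3, a nucleolar GTP-binding protein (0.18 ± 0.05), BRIX1 (0.19 ± 0.06) and NPM1 (0.12 ± 0.04). After ND4L, 0 were higher and 16 lower (4.95% and 6.14%), with WDR12 (-0.14 ± 0.03), the third partner of PES1 and BOP1, DDX21 (-0.14 ± 0.04), BRIX1 (-0.19 ± 0.06) and NPM1 (-0.10 ± 0.04) among them. BRIX1 was at 105, 117, 110 and 95.4 CPM after ND1 and at 87.2, 103, 71.6 and 75.2 CPM after ND4L. After ND5, 0 were higher and 9 lower (6.41% and 6.21%), and after COX3 6 were higher and 0 lower (2.32% and 2.62%). A test for any difference among the 11 treatments called 0 members with edgeR, against 0.306% of all genes, 18 of 60 at an unadjusted p below 0.05 against 10% of all genes, and 4 with DESeq2, against 1.76% of all genes. WDR74 had the lowest p of these (adjusted p = 0.11, edgeR).

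**Figure D3:**
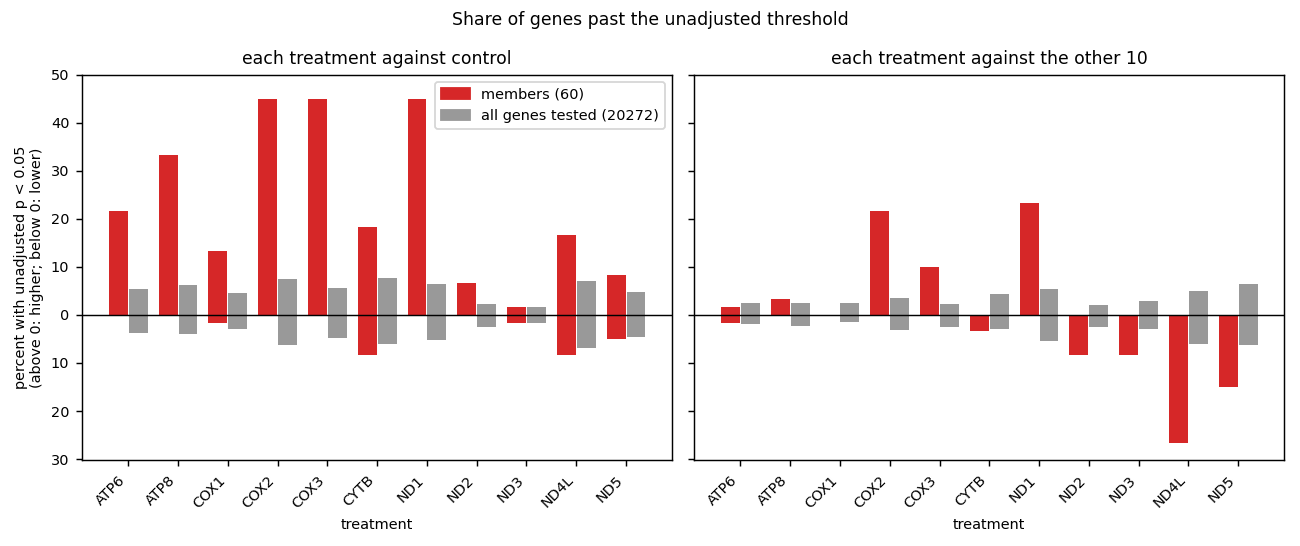
Percent of the 60 members (red) and of the 20272 genes tested (grey) with an unadjusted p below 0.05, for each treatment against control (left) and against the other 10 treatments (right); bars above 0 are genes that were higher and bars below 0 genes that were lower. Against control, 27 of 60 members are higher after COX2, COX3 and ND1; against the other treatments, 16 are lower after ND4L.

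More members differed between the batches than in any treatment. Between batch 2 and batch 1, 40 of 60 members passed the test, 7 higher and 33 lower, beside 29.2% of all genes higher and 27.9% lower. UTP20 had a median of 111 CPM in the 22 libraries of batch 1 (98.4 to 120 CPM) and of 91.1 CPM in the 24 of batch 2 (74.3 to 107 CPM), a log2 fold change of -0.27 ± 0.03. EBNA1BP2, a pre-60S factor, went from a median of 139 CPM (114 to 157 CPM) to 116 CPM (97.2 to 135 CPM), at -0.24 ± 0.03, and UTP4, a processome subunit, from 99.9 CPM (88.9 to 111 CPM) to 87.9 CPM (76.8 to 96.8 CPM), at -0.21 ± 0.02. In all 3 the ranges of the batches overlapped. NOP2 (0.57 ± 0.07), GNL3 (0.12 ± 0.03) and NOP56 (0.11 ± 0.02) were the most raised in batch 2, with the value of NOP2 resting on medians of 2.20 and 3.38 CPM. In either direction 57.1% of all genes were called. Day and reagent batch cannot be told apart in this difference.

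**Figure D4:**
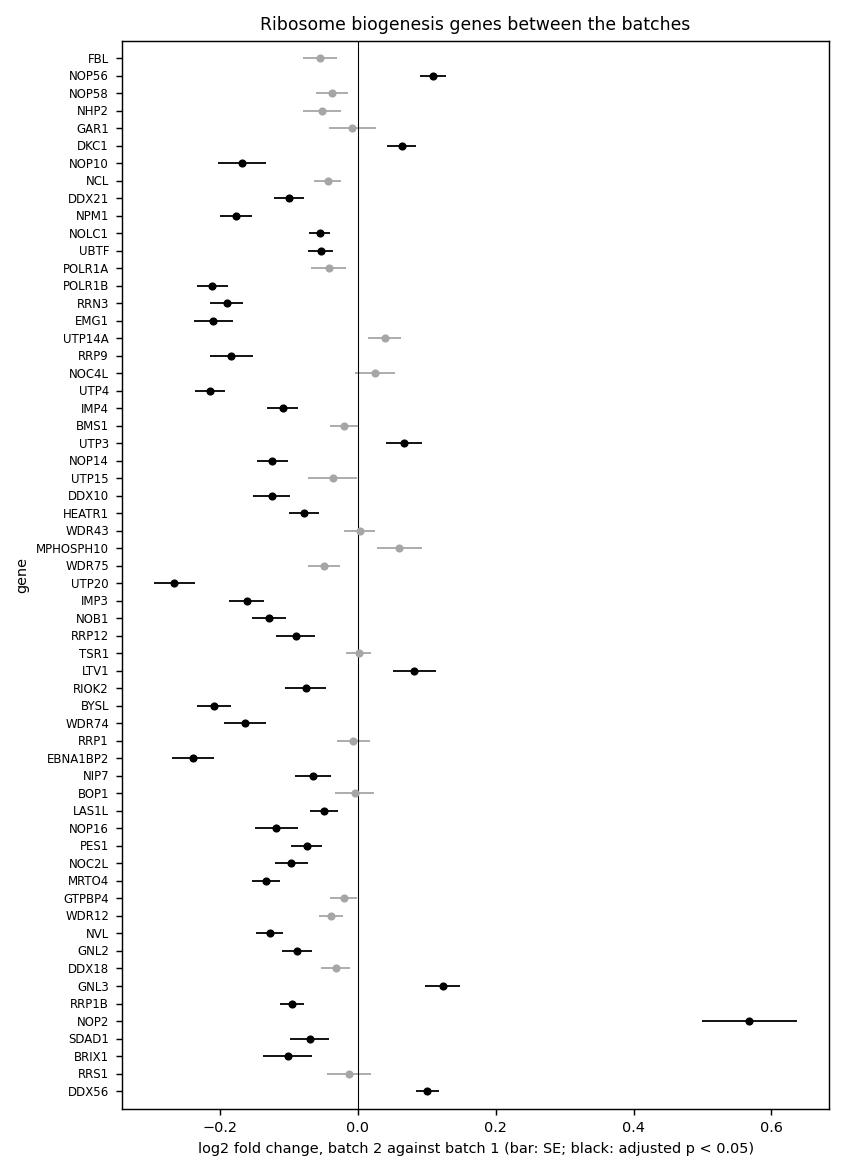
Log2 fold change of the 60 genes between batch 2 and batch 1 (horizontal axis; bars are SE), with genes in the order of the heat map; black points have an adjusted p below 0.05. Most points lie left of 0, and NOP2 lies farthest to the right at 0.57.

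The 115 other genes of the pathway, of which 114 were tested, gave fewer calls. This list too was chosen with earlier results of these data known. RUVBL2, an ATPase of snoRNP assembly, was higher after COX2 (0.26 ± 0.05), COX3 (0.22 ± 0.05) and CYTB (0.24 ± 0.05) and in the mean of the treatments (0.18 ± 0.04). NOP53, which brings the exosome to pre-60S particles, was higher after CYTB (0.34 ± 0.07) and ND4L (0.32 ± 0.07) and in the mean (0.22 ± 0.05). No other gene of these 114 was called against control, and none was lower. Of all genes, 0.252% were called higher after COX2, 0.178% after COX3, 0.118% after ND4L and 0.178% in the mean. After CYTB 0.548% were called in either direction. Against the other 10 treatments the exosome subunits EXOSC4 (-0.26 ± 0.06) and EXOSC5 (-0.21 ± 0.05) fell after ND5, beside 0.296% of all genes called lower. The median of these 114 genes was 0.06 after COX2, 0.05 after COX3 and 0.07 after ND1, beside 0.10, 0.09 and 0.10 for the 60 members.

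The mRNAs of ribosomal proteins were measured in the same libraries. Of 79 cytosolic ribosomal protein genes 78 were above 0 after ND1 with a median log2 fold change of 0.18, 78 after COX2 with 0.13 and 66 after COX3 with 0.07. The only calls in this list were RPS3 after CYTB (0.25 ± 0.06) and ND4L (0.28 ± 0.06). For 81 mitochondrial ribosomal protein genes the medians were 0.13, 0.11 and 0.07. MRPL24 was called after ATP8 (0.30 ± 0.06) and CYTB (0.28 ± 0.06) and in the mean of the treatments (0.22 ± 0.05), and MRPS16 after CYTB (0.17 ± 0.04). Beside these calls stand 0.0641% of all genes called after ATP8 and 0.548% after CYTB, in either direction. Called higher were 0.118% after ND4L and 0.178% in the mean. MYC itself was at 81.7 ± 5.89 CPM in control (SD, n = 4). Over all libraries it was at 77.4 ± 4.06 CPM in batch 1 (SD, n = 22) and at 93.5 ± 5.73 CPM in batch 2 (SD, n = 24). Its log2 fold change was 0.05 ± 0.05 after COX2, 0.13 ± 0.05 after COX3 and 0.10 ± 0.05 after ND1. The value was highest after CYTB (0.16 ± 0.05) and ND2 (0.14 ± 0.05), where the median of the 60 members was 0.02 and 0.05. None of these values for MYC passed the test. None of the 6 transcription factor genes of the list (MYC, MYCN, MAX, MXI1, MNT and MXD4) and none of the 14 non-coding snoRNA host genes passed it in any treatment. The mRNA levels given here say nothing of the amount of rRNA, which poly(A) selection removes, and fewer cells with a transcript cannot be told apart from less of it per cell.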

How the data were processed

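RNA-seq was done on 46 libraries of HEK293T cells. The authors deposited 1 table of raw read counts per gene, with gene length as an additional column; per their methods, GRCh38.p12 was the genome, and the aligner, the counter and its strand setting are not given in the sources used here. Nothing in the table had been normalized. The labels describe 50 bp single-end reads and the study's methods 50 bp paired-end reads, which the table does not settle.

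Counts were tested with the quasi-likelihood test of edgeR 4.0.16 in R 4.3.3 (filterByExpr with a minimum count of 10, TMM factors, group and batch as terms, all 46 libraries in 1 fit, Benjamini-Hochberg adjustment over 20272 genes, adjusted p below 0.05). Batch was taken from the study's methods, which put replicates 1 and 2 and replicates 3 and 4 on different days. CPM are counts scaled to library size with TMM factors, and levels per kb were divided by the deposited gene length, which equals the joined exons of GENCODE 29 for every gene. DESeq2 1.42.0, other scalings, filters and subsets of libraries were alternatives. The removal of the GC trend, with GC from GENCODE 29 transcripts, was added after seeing the data. No pair of libraries of 1 group agreed within sampling noise.

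The fit was tested on simulated counts with changes set in the COX2 libraries. It recovered 15 of 46 genes changed 1.25-fold, 31 of 50 changed 1.5-fold and 42 of 50 changed 3-fold. It called 1 unchanged gene. Changes smaller than 1.25-fold were not simulated. The members and lists were chosen with earlier results of these data known. Named genes were all members called in a treatment comparison, then those of lowest p in the mean of the treatments until 20 were reached, with the member of highest level per kb in each group, the 3 highest and 3 lowest called between batches and the member of lowest p in each treatment. Others named here were chosen after their values were seen.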

Additional observations from a re-analysis of the deposited data

Results flagged for a closer look

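IMP3 after ND5 was the 1 member called in the comparisons of each treatment with the other 10. This was 1 of 660 tests of members. Of the tests of all genes in these comparisons, 0.0991% were called, a share near that of the members. The test for any difference among the 11 treatments called 0 members with edgeR. IMP3 kept its call in 7 of 12 alternative fits. Its log2 fold change against the mean of the other 10 treatments was -0.187 (adjusted p = 0.0332, edgeR), and all 4 ND5 libraries were below the control mean of their batch. Against control alone the value was -0.23 ± 0.06 (SE, adjusted p = 0.10, edgeR). In 21 groups of 4 libraries (the share of counts on the 60 genes in each group, and the called genes in the groups compared), 0 had a library far from the others by Dixon's criterion, which chance meets in about 1 of 20.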

How the results depend on the processing

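The median log2 fold change of the members moved by less than the SD between libraries under every alternative fitted, and was negative only for ND5, in batch 1 alone (-0.024) and without ND5 replicate 3 (-0.011). No called member changed direction. The counts of members called moved more. Without a batch term, and in batch 1 alone, they were 0 after COX2, 0 after COX3, 0 after ND4L, 0 in the mean of the treatments and 0 in the comparisons with the other 10. Batch 2 alone gave 0 after COX2, 1 after COX3, 3 after ND4L and 0 against the other 10. DESeq2 called 1 after ATP6, 4 after ATP8, 10 after COX2, 4 after COX3, 3 after CYTB, 6 after ND1, 4 after ND4L, 2 after ND5, 5 in the mean, 5 against the other 10 and 4 among treatments. Without a filter there were 2 after ATP6, 4 after ATP8, 8 after COX3, 4 after CYTB, 4 after ND1, 4 after ND4L, 4 in the mean, 10 against the other 10 and 10 among treatments. The stricter filter gave 1 after CYTB, 1 after ND5, 2 in the mean and 2 against the other 10. With only the libraries compared in the fit there were 2 after ATP8, 5 after CYTB, 6 after ND1 and 3 after ND4L. Removing the GC trend gave 4 after COX2, 1 after CYTB, 4 after ND1, 0 after ND4L, 1 after ND5 and 2 in the mean. Removing the length trend gave 1 after COX3, 0 after ND4L and 0 against the other 10. RLE size factors gave 1 after CYTB and 0 after ND4L, and library sizes from nuclear genes 0 after ND4L. Requiring an absolute log2 fold change of 0.25 left 0 in the mean, 0 against the other 10 and 2 between batches. Calls over all genes moved too. Summed over the 11 comparisons with control they were 381 in the fit reported, 34 without a batch term, 59 in batch 1 alone, 228 in batch 2 alone, 1482 with DESeq2, 2169 without a filter (of 47354 genes tested in each), 576 with the stricter filter, 1593 with only the libraries compared, 663 with the GC trend removed, 355 with the length trend removed, 395 with RLE factors, 370 with nuclear library sizes and 892 with the replicate block. The cause of these differences was not tested.

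With the replicate number as a block in place of the batch, the fit called 1 member after ATP8, 5 after COX3, 2 after CYTB, 1 after ND1, 1 after ND5, 4 in the mean, 3 against the other 10 and 3 among treatments. Deviations of same-numbered libraries from their group means correlated at 0.116 to 0.329 over 42 pairs, but at -0.0097 to 0.052 within the batches, so that the numbers were linked through the batch.

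Leaving out 1 library at a time gave 0 to 1 members called after ATP8, 0 to 8 after COX2, 0 to 3 after COX3, 0 to 1 after CYTB, 0 to 1 after ND4L, 0 to 1 after ND5, 0 to 3 in the mean and 0 to 2 against the other 10. With COX3 replicate 4 drawn down to 23413171 counts, no count moved by over 1.5 times.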
